A study of Mus musculus with 40 samples.

Results

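The genomic distribution of H3K9me2, the dimethylated form of lysine 9 of histone H3, was compared between mouse oocytes lacking both G9a and Glp and control oocytes. The members were 4 of the 40 samples of the series, the cDKO libraries 5 and 7 and the control libraries 2 and 4, numbered as in their titles. They were read in 255057 of the 272158 windows of 10 kb in the deposited table, those with at least 1 read in 1 or more of the 6 H3K9me2 libraries. The oocytes were labelled as germinal vesicle (GV) oocytes, that is, oocytes arrested before meiotic maturation, dissected by hand from mice aged 22 to 25 days, with 100 to 200 oocytes per sample. Control oocytes are labelled by genotype as Control, and the cDKO as G9a-Glp cDKO, a conditional deletion of both genes. The 2 libraries labelled G9a cKO, from the same ages, carry a conditional deletion of G9a with no deletion of Glp named. The Cre driver, the strain and whether the libraries of a genotype came from separate mice are not given in the sources used here, so p-values measure only the spread between these samples. Chromatin was immunoprecipitated from native nuclei of very few cells (ULI-nChIP) with 250 ng of antibody per reaction.

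The Ehmt2 gene encodes G9A and the Ehmt1 gene GLP, related methyltransferases that act largely as a complex and place most of the H3K9me2 of euchromatin. H3K9me2 covers broad domains of silent chromatin and is generally low over transcribed genes. Other enzymes, among them SETDB1 and the SUV39H pair, methylate the same residue, mainly to the trimethylated form found in heterochromatin. Because each library is scaled to its own reads, the values show how its reads were shared over the genome and not how much of the mark there was in all. The total amount cannot be read from them, and input and IgG libraries were not analysed here. Gain, loss, more, higher and lower below refer to this share of reads, in which background is not set apart from the mark.

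The promoters of 4 genes among those with the largest gene-body differences in each direction are shown. Each sequence is the RefSeq entry of build GRCm38.p6 from 250 bases before to 50 bases after the start site, with CpG dinucleotides in capitals. The start site is that of the promoter entry. For Pnpla1, Git2 and Mamld1 it lies inside the gene coordinates used for the gene bodies, and for Gpc4 at their edge. Pnpla1 (chr17:28858161-28858460, plus strand) and Git2 (chr5:114773443-114773742, minus strand) gained share, and Mamld1 (chrX:71050006-71050305, plus strand) and Gpc4 (chrX:52164874-52165173, minus strand) lost it. They were the leading genes of each direction with an entry in the table.
Pnpla1: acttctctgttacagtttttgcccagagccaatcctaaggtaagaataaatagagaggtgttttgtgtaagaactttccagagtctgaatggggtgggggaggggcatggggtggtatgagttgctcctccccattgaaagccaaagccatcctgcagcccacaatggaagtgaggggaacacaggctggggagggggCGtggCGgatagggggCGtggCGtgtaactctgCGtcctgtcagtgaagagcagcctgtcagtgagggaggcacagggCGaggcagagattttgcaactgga
Git2: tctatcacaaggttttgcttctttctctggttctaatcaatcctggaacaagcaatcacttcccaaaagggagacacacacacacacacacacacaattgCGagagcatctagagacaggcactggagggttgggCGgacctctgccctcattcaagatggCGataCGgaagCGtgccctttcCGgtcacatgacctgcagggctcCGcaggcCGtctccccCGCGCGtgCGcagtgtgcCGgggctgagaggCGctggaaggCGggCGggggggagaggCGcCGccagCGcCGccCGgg
Mamld1: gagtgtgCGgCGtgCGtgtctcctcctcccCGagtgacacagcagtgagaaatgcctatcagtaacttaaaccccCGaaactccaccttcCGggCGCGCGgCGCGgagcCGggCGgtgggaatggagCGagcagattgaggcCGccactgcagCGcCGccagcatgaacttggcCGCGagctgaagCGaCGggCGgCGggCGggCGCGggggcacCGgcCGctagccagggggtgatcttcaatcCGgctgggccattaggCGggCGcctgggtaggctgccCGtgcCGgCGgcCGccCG
Gpc4: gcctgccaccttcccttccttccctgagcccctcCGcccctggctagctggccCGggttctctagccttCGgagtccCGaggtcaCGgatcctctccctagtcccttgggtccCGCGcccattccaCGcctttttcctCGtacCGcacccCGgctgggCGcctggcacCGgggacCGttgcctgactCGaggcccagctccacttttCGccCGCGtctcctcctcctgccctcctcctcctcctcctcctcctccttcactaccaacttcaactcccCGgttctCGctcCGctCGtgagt
The Pnpla1 window holds 6 CpG, the Git2 window 21, the Mamld1 window 36 and the Gpc4 window 22. Promoter entries were found for 5227 of the 6637 genes tested (78.8%), for 397 of the 498 called higher (79.7%) and for 40 of the 61 called lower (65.6%). Among those with an entry, the median was 20 CpG over all, 24 in genes called higher and 20.5 in genes called lower. The 4 sequences shown do not stand for these sets. The sets also differed in RNA of control oocytes, with medians of 22.3, 66.1 and 1.4 RPM, and no test of CpG content was run. In the 10 kb window that holds the Gpc4 start site, controls had 45 and 120 reads (6.38 and 6.27 RPM, reads scaled to a library total of 1000000), cDKO 3 and 1 reads (1.74 and 0.531 RPM), and G9a cKO 6 and 2 reads. In the window at the Mamld1 start, controls read 5.53 and 5.12 RPM and cDKO 2.90 and 2.66 RPM. At the Pnpla1 start the order was opposite, with 2.55 and 3.82 RPM in controls and 11.03 and 8.50 RPM in cDKO. At the Git2 start, controls read 3.12 and 2.67 RPM and cDKO 6.38 and 5.31 RPM. Each of these windows keeps the 2 genotypes apart, on 1 to 19 reads per cDKO library. Each is part of the gene body whose values chose the gene, so this is no separate evidence about the promoter.

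Depth differed with genotype and cannot be told apart from it. Controls were scaled to 7048784 and 19128881 reads, cDKO to 1723142 and 1881848, and G9a cKO to 1857144 and 1109191. Median windows held 28 and 77 reads in controls and 4 to 7 in the mutants. Across the 2563 bins of 1 Mb, the levels of the 2 controls correlated at r = 0.988 and those of the 2 cDKO libraries at 0.943, while control and cDKO libraries correlated at 0.717 to 0.794 and G9a cKO and cDKO libraries at 0.805 to 0.904. These are descriptions, since bins share a genome, its mappability and its base composition. The deletion could be looked at only in RNA libraries of other oocytes of the series, which do not check the H3K9me2 libraries themselves. Ehmt1 had 144, 164 and 173 reads in the 3 controls with the GKAQ title prefix and 31 and 36 reads in the 2 cDKO libraries, a log2 difference of -2.06 ± 0.20 (SE; limma adjusted p = 1.09e-21). Ehmt2 had 8, 30 and 16 reads against 5 and 5 (-1.45 ± 0.57; limma adjusted p = 0.121), too few for a call. In pools, fewer cells with a transcript or mark and less of it per cell cannot be told apart. Of 14 oocyte markers 13 were matched to RNA loci, with medians of 957 RPM in controls and 777 RPM in cDKO. Of the 13, 8 were higher and 5 lower in cDKO, with 5 called higher and 2 lower at a limma adjusted p under 0.05. Over all 38540 RNA loci, 4.32% were called higher and 2.02% lower. They summed to 17320, 17570 and 18120 RPM in the 3 GKAQ controls and to 18280 and 18510 RPM in cDKO.

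At 1 Mb, 501 bins rose in cDKO (19.5% of 2563) and 558 fell (21.8%), at a limma adjusted p under 0.05. The bins that rose were rich in genes and RNA: they held a median of 12 protein-coding genes and 580 RPM of RNA in control oocytes, against 6 genes and 150 RPM over all bins. The bins that fell held a median of 3 genes and 41.4 RPM. The level of the bins that rose had a median of 3.72 RPM per 10 kb window in controls and 4.59 RPM in cDKO, with a median log2 difference of 0.30. The bins that fell went from a median of 4.24 to 3.50 RPM, with a median log2 difference of -0.26. The gain started below the typical bin of 4.01 RPM in controls and the loss above it. The same controls entered the calls, which favours this order, so it is not separate evidence. Bins ranked by control 4 and read in control 2 are given below. Leaving out 1 library at a time left 367 calls without control 2, 257 without control 4, 447 without cDKO 5 and 759 without cDKO 7. Both directions were present each time, with 94 or more bins in each.

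Called bins often lay side by side. Of the bins that rose, 71.3% had a neighbour that also rose, and of those that fell 65.2% had one that fell. The longest run that rose was chr7:16000001-36000000, 20 consecutive bins with 526 genes, where controls read 2.89 and 2.87 RPM per window and cDKO 3.98 and 3.84 RPM. Another run of 13 bins at chr5:139000001-152000000 went from 3.72 and 3.74 RPM to 5.04 and 4.85 RPM. The longest run that fell was chr16:71000001-82000000, 11 bins with only 15 genes, with 3.96 and 3.96 RPM in controls against 3.14 and 3.22 RPM in cDKO. The run chr3:50000001-59000000, 9 bins, went from 4.33 and 4.37 RPM to 3.52 and 3.58 RPM. In all 4 runs both cDKO libraries lay outside the range of the controls. This follows from the calls, since the same held for all 501 bins called higher and all 558 called lower.

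The chromosomes shared unequally in this shift. Chromosome 17 had 42.4% of its 1 Mb bins called higher and 6.52% lower, and chromosome 11 had 36.1% higher and 6.72% lower. On chromosome 16, 45.3% of bins were called lower and 9.47% higher, and on chromosome 14 the shares were 32.8% and 8.20%. As a whole, chromosome 17 read 3.75 and 3.79 RPM per window in controls and 4.20 and 4.12 RPM in cDKO, and chromosome 16 read 4.03 and 4.07 RPM against 3.73 and 3.69 RPM. Chromosome X read 3.74 and 3.68 RPM in controls and 3.62 and 3.44 RPM in cDKO. For these and all class values below, 2 libraries against 2 allow 6 orderings, so the smallest p of an exact two-sided permutation test is 0.333 and no class can pass it. They are therefore given as levels, with the statement of whether the genotypes overlap.

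The 5 bins of 1 Mb with the largest gains were clusters of multicopy genes with very few H3K9me2 reads per window in controls. Bins chr7:20000001-21000000, chr7:21000001-22000000 and chr7:22000001-23000000 hold the Vmn1r cluster, receptors of the vomeronasal organ, the sense organ for pheromones. The middle bin read 0.411 and 0.441 RPM per window in controls and 1.03 and 1.31 RPM in cDKO, a log2 difference of 1.45 ± 0.19 (SE; limma adjusted p = 0.000899). It rose also in the libraries labelled G9a cKO, which read 1.71 and 1.21 RPM. The Btbd35f cluster on chromosome X, chrX:32000001-33000000, read 0.585 and 0.561 RPM in controls against 1.25 and 1.22 RPM in cDKO. The Vmn2r genes of chr7:9000001-10000000 read 0.376 and 0.341 RPM against 0.813 and 0.709 RPM. Only 58 to 80 of the 100 windows of these 5 bins were kept, and reads from near-identical copies may have been placed uncertainly. On chromosome Y, which oocytes of females lack, the 4 bins of 100 kb that were kept read 0.0780 and 0.123 RPM in controls and 0.287 and 0.369 RPM in cDKO, so values in such sequence were also higher in cDKO there. They rest on few reads: chrY:4000001-4100000 held 3 and 4 in controls and 4 and 4 in cDKO. A bin without reads was set to 0.9 read, which is a higher RPM in libraries with fewer reads. The part of read placement in the 5 gains of 1 Mb bins, and in the low control levels of those 5 bins, was not tested. With 0.5 RPM added before log2, the difference of the middle Vmn1r bin was 0.85 and those of the 5 bins 0.55 to 0.85, all still called.

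The 5 bins with the largest losses had every one of their 100 windows kept and lay above 3.9 RPM in both controls. Bin chr13:72000001-73000000, whose only protein-coding gene is the homeobox gene Irx2, read 5.13 and 5.14 RPM in controls and 3.47 and 3.62 RPM in cDKO, a log2 difference of -0.53 ± 0.06 (SE; limma adjusted p = 0.000697). Its near neighbour chr13:70000001-71000000, with the metalloprotease gene Adamts16 and with Ice1, read 5.40 and 5.23 RPM against 3.51 and 3.85 RPM. Bin chrX:52000001-53000000 holds the glypican genes Gpc3 and Gpc4, the purine salvage gene Hprt and Phf6. It read 4.65 and 4.58 RPM in controls and 3.24 and 3.16 RPM in cDKO. Bin chr3:78000001-79000000, with no protein-coding gene, read 4.28 and 4.31 RPM against 3.14 and 2.83 RPM. Bin chr16:63000001-64000000, with the ephrin receptor gene Epha3, read 3.94 and 3.91 RPM against 2.60 and 2.92 RPM. None of the 10 bins lost its call under any alternative in which it could be tested. The 5 gains could not be tested where bins had to keep 90% or all of their windows, whereas the 5 losses could.

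**Figure D1:**
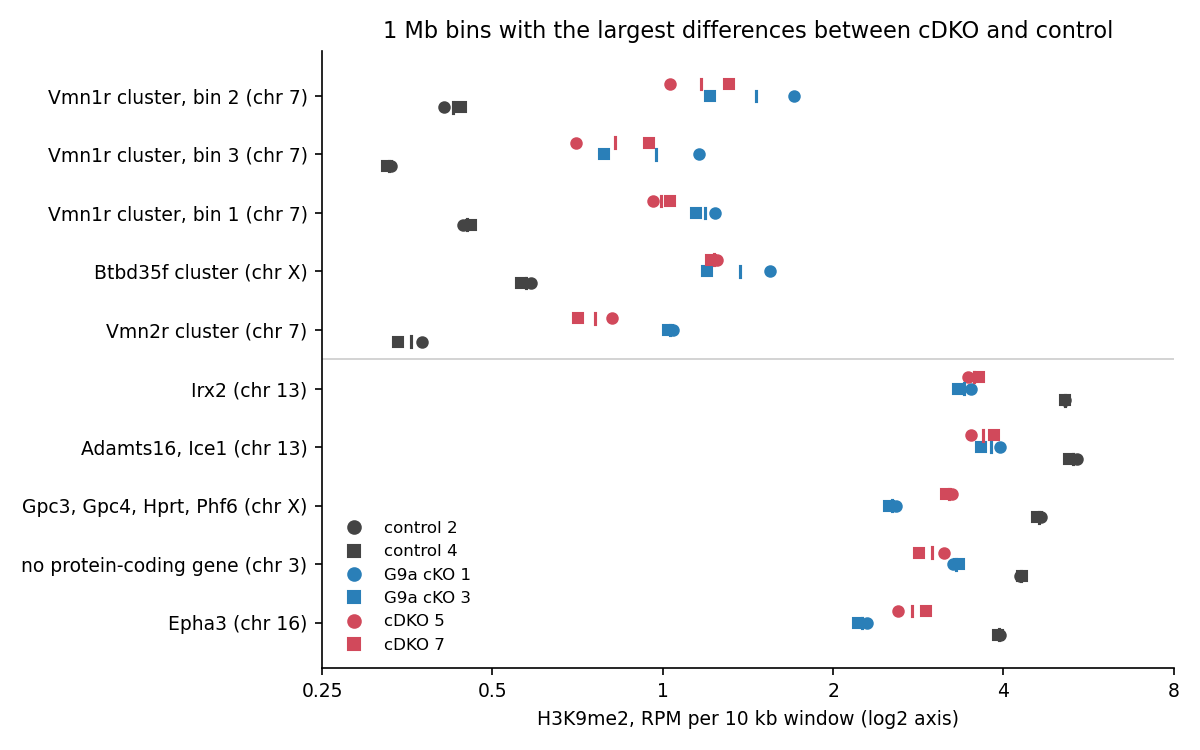
H3K9me2 in the 10 bins of 1 Mb with the largest gains (above the line) and losses (below it) in cDKO against control. Each point is 1 library in RPM per 10 kb window on a log2 axis, and the short lines are group means. Controls and cDKO do not overlap in any bin, which was a condition for choosing the bins, and the gains start below 0.6 RPM.

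Sorting the 25533 bins of 100 kb by RNA showed the same shift on an independent scale, the RNA of control oocytes of both title series. In the 2583 bins with over 100 RPM of RNA, H3K9me2 read 3.70 and 3.61 RPM per window in controls and 4.44 and 4.35 RPM in cDKO, a log2 difference of 0.27. In the 8159 bins with 0 RPM of RNA, it read 3.89 and 3.93 RPM in controls and 3.60 and 3.62 RPM in cDKO, a log2 difference of -0.11. Bins with over 10 to 100 RPM read 3.91 and 3.88 RPM against 4.34 and 4.30 RPM, while those with over 1 to 10 RPM read 4.13 and 4.17 RPM against 4.06 and 4.05 RPM. The controls therefore had their lowest level in the most transcribed class, and in cDKO that class had the highest. Of the most transcribed bins 289 rose (11.2%) and 4 fell, where over all bins 1130 rose (4.43%) and 398 fell (1.56%), at a limma adjusted p under 0.05. G9a cKO read 4.07 and 4.19 RPM in that class, between the 2 controls and the 2 cDKO libraries. Calls in the class with 0 RPM of RNA went both ways, with 179 bins higher (2.19%) and 167 lower (2.05%) at the same threshold.

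Gene number ordered the bins in the same way. The 9076 bins with no protein-coding gene read 4.03 and 4.08 RPM in controls and 3.78 and 3.76 RPM in cDKO, a log2 difference of -0.11. The 1951 bins with 4 or more genes read 3.88 and 3.81 RPM against 4.37 and 4.31 RPM, a log2 difference of 0.18. Bins with 1 gene read 3.97 and 4.00 RPM against 3.96 and 3.97 RPM, so the genotypes all but met there. Gene-free bins read 4.02 and 3.89 RPM in G9a cKO, above both cDKO libraries. Counts at 100 kb depend on every library: 31 bins are called without control 2, 22 without control 4, and 0 without cDKO 5 or without cDKO 7 (5082 and 7012 at an unadjusted p under 0.05), whereas the class values kept their sign in each of these.

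**Figure D2:**
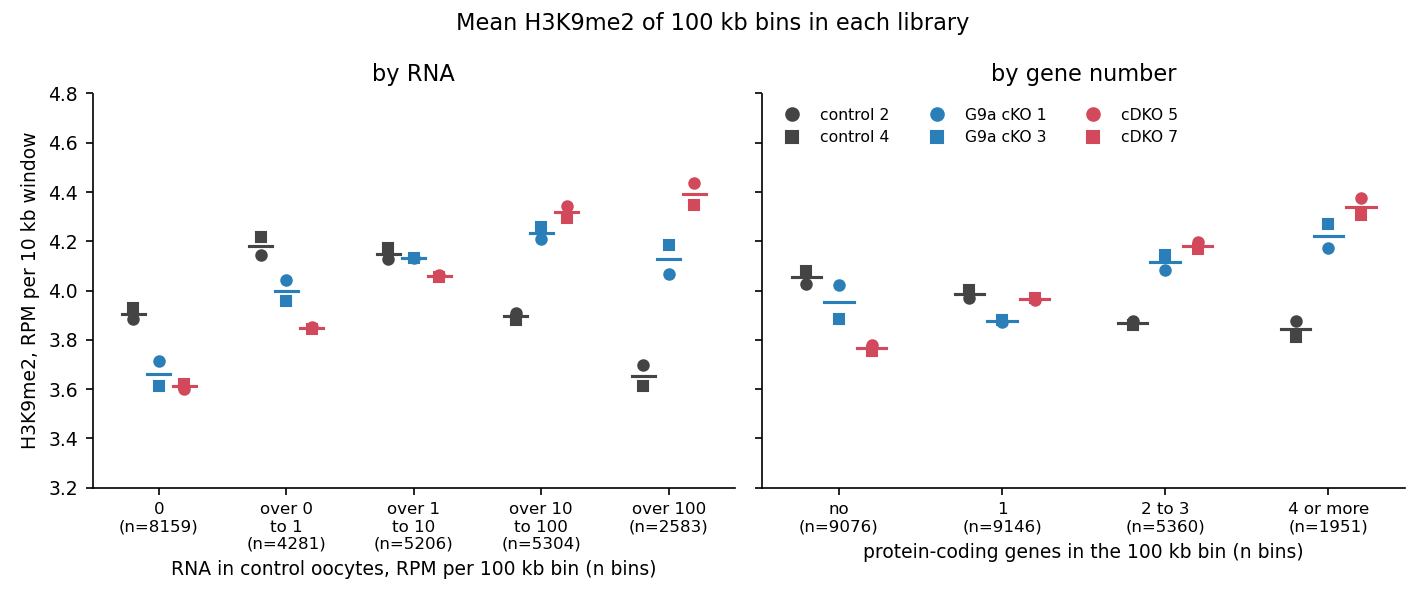
Mean H3K9me2 of 100 kb bins, in RPM per 10 kb window, by RNA of control oocytes in the bin (left) and by number of protein-coding genes (right); the vertical axis does not start at 0. Each point is 1 library and lines are group means. In bins with over 100 RPM of RNA controls read 3.70 and 3.61 and cDKO 4.44 and 4.35, and in bins with 0 RPM the order is opposite.

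Ranking the bins by control 4 and reading them in the other libraries showed how far the control pattern was retained. In the 2552 bins lowest in control 4, control 2 read 2.57 RPM per window and the cDKO libraries 3.33 and 3.22 RPM. In the 2553 bins highest in control 4, control 2 read 5.05 RPM and the cDKO libraries 4.22 and 4.36 RPM. From the second to the ninth of the 10 ranks, cDKO levels stayed between 3.89 and 4.20 RPM while control 2 climbed from 3.39 to 4.64 RPM. G9a cKO ran from 3.18 and 3.15 RPM in the lowest bins to 4.37 and 4.40 RPM in the highest. Both mutants thus kept the lowest bins low and had a nearly level profile across the rest. How far the bins spread in all depended on the measure. The coefficient of variation between autosomal bins of 1 Mb, with the counting variance subtracted, was 13.0% and 13.6% in controls, 16.2% and 15.4% in cDKO and 19.5% and 20.9% in G9a cKO. At 100 kb it overlapped between controls (17.9% and 19.1%) and cDKO (22.5% and 19.0%). The SD of log2 levels between autosomal 1 Mb bins also overlapped, with 0.28 and 0.29 in controls and 0.28 and 0.27 in cDKO. Over all 1 Mb bins it was lower in cDKO, with 0.35 and 0.37 in controls against 0.33 and 0.33. No change of the spread can be stated from these.

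**Figure D3:**
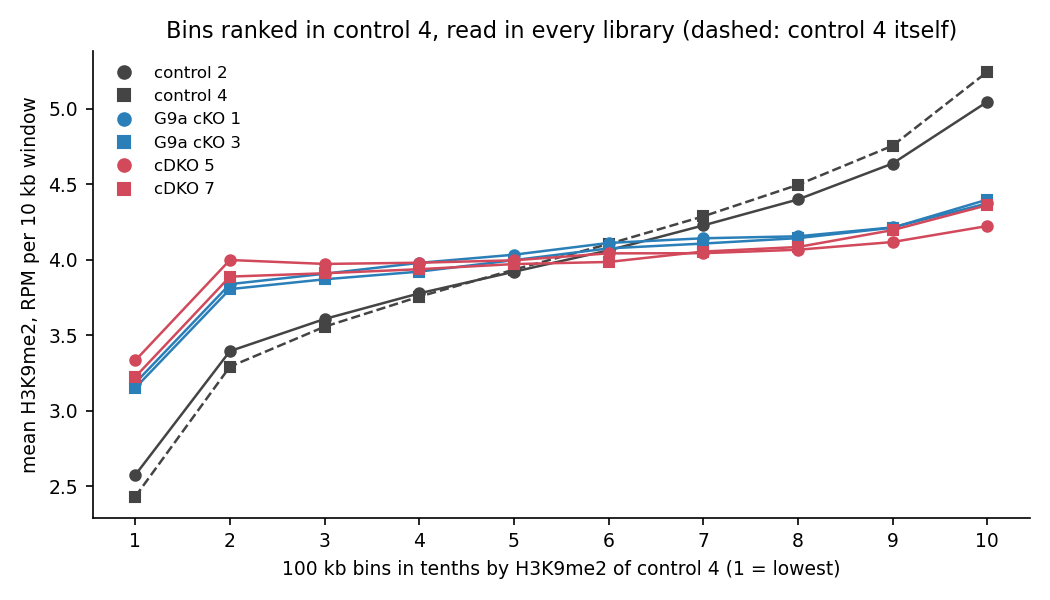
Mean H3K9me2 in RPM per 10 kb window of 100 kb bins placed in 10 ranks by their level in control 4, from lowest to highest. Each line is 1 library, and control 4 itself (dashed) is shown for reference only. Control 2 climbs from 2.57 to 5.05, and the cDKO libraries cross it near the middle ranks.

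The first 3 Mb of each chromosome with kept bins, next to the unassembled centromere, were another place of gain. Their 594 bins read 3.36 and 3.41 RPM in controls and 4.23 and 3.96 RPM in cDKO, and 83 rose (14.0%, against 4.43% of all 100 kb bins) while 1 fell (0.168%, against 1.56% of all). The libraries labelled G9a cKO read higher still there, 4.58 and 4.40 RPM. The last 3 Mb, next to the other telomere, read 4.07 and 4.10 RPM in controls and 4.22 and 4.12 RPM in cDKO, and 33 of 591 bins rose (5.58%) while 15 fell (2.54%, against the same 4.43% and 1.56%).

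Gene families differed in direction. Called shares of a family are to be read against the 4.43% of all 100 kb bins that rose and the 1.56% that fell. The Cyp3 genes, cytochromes P450 that oxidise drugs and steroids, lie in 11 bins that read 3.36 and 3.24 RPM in controls, 5.81 and 5.52 RPM in cDKO and 7.40 and 7.21 RPM in G9a cKO, and 9 of the 11 rose in cDKO (81.8%). The 374 bins with Zfp genes, zinc-finger proteins of which many repress transposons, read 3.83 and 3.82 RPM against 4.59 and 4.41 RPM, and 57 rose (15.2%) while 3 fell (0.802%). Bins with Vmn1r genes read 2.99 and 3.03 RPM against 3.62 and 3.38 RPM, with 20 of 98 called higher (20.4%), and those with Vmn2r genes 2.93 and 2.92 RPM against 3.57 and 3.19 RPM, with 12 of 113 (10.6%). Restricted to bins with every window kept, the log2 differences were 0.75 for Cyp3, 0.22 for Zfp, 0.20 for Vmn1r and 0.20 for Vmn2r, close to 0.78, 0.23, 0.22 and 0.21 over all bins of these families. In all 4 families the G9a cKO libraries read above both cDKO libraries. Cyp2 bins followed them, with 3.80 and 3.76 RPM in controls, 4.57 and 4.15 RPM in cDKO and 5.48 and 5.23 RPM in G9a cKO.

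Several families lay below controls. The 80 bins with ionotropic glutamate receptor subunits (Gri) read 4.24 and 4.34 RPM in controls and 3.68 and 3.93 RPM in cDKO, a log2 difference of -0.17. The 40 bins with GABA receptor subunits (Gabr) read 4.01 and 4.10 RPM against 3.68 and 3.64 RPM, and the 99 bins with contactins (Cntn) 3.98 and 4.06 RPM against 3.64 and 3.78 RPM. Defensin genes, which encode antimicrobial peptides, lie in 22 bins at 3.41 and 3.52 RPM against 3.13 and 2.89 RPM. Few of these bins were called singly: 1 of the 80 Gri bins rose and 1 fell, 1 of the 40 Gabr bins fell, and no defensin bin was called. Olfactory receptor genes (Olfr), in 345 bins, read 3.78 and 3.84 RPM in controls and 4.04 and 3.88 RPM in cDKO. Genes with imprinted expression, whose parental copies differ in activity, lie in 46 bins that read 3.80 and 3.94 RPM against 4.37 and 4.23 RPM, with 3 called higher (6.52%, against 4.43% of all) and 0 lower. Hox bins, 9 in all, read 3.69 and 3.48 RPM in controls, 3.71 and 3.99 RPM in cDKO and only 2.59 and 3.06 RPM in G9a cKO. Solute carrier genes (Slc), in 532 bins, read 4.14 and 4.13 RPM against 4.32 and 4.31 RPM, with 30 called higher (5.64%) and 6 lower (1.13%), against 4.43% and 1.56% of all bins, and Zscan genes, in 19 bins, 3.57 and 3.50 RPM against 4.00 and 3.91 RPM, with 3 called higher (15.8%). Keratin genes (Krt), in 15 bins, read 4.57 and 4.54 RPM against 4.22 and 4.21 RPM, and Usp17l genes, in 4 bins, 3.83 and 3.93 RPM against 3.26 and 3.26 RPM (log2 -0.25), with no call in either. The Cyp4, Serpin and Skint bins had 1 cDKO library within or below the range of controls. Protocadherin (Pcdh), calcium channel (Cacna), potassium channel (Kcn), glucuronosyltransferase (Ugt), Krtap, cadherin (Cdh) and Tdpoz bins had log2 differences of -0.09 to 0.07. Bins of a family lie side by side and share reads at their borders, so they are not independent of each other.

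**Figure D4:**
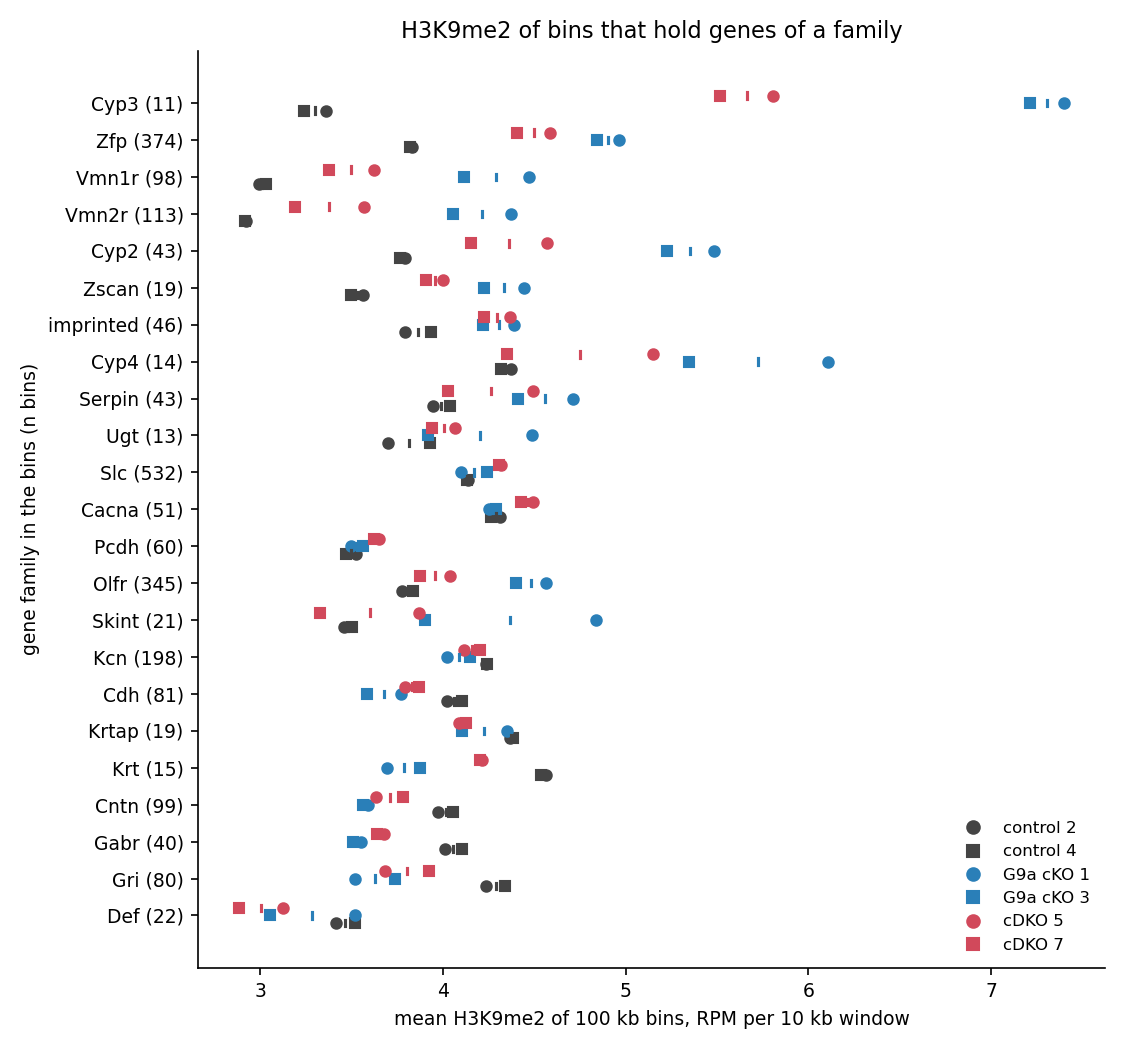
Mean H3K9me2, in RPM per 10 kb window, of 100 kb bins that hold genes of a family or imprinted genes, for lists with at least 10 bins (number of bins in brackets), ordered by the log2 difference between cDKO and control. Each point is 1 library and short lines are group means. Cyp3, Zfp and Vmn bins lie right of controls in both mutants, and Gri, Gabr and Cntn bins lie left of them.

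Among single bins of 100 kb, the 10 with the largest gains were sequence with almost no reads in controls, at most 0.659 RPM per window. Of these, 6 lay in the Vmn clusters of chromosome 7, 2 on X, 1 on chromosome 17 and 1 on Y, and the leading one, chr7:20500001-20600000, rested on 1 and 4 reads in controls and 3 and 4 in cDKO. With 0.5 RPM added before log2 their differences were 0.56 to 1.03, and 3 of the 10 lost their call, the leading one among them (limma adjusted p = 0.138). The 10 largest losses began from 1.47 to 5.62 RPM in controls. Bin chrX:52100001-52200000, which holds Gpc4, read 5.62 and 4.63 RPM in controls and 2.26 and 2.92 RPM in cDKO, a log2 difference of -0.99 ± 0.19 (SE; limma adjusted p = 0.0237). Bin chr2:141100001-141200000, inside Macrod2, read 3.83 and 3.99 RPM against 1.97 and 2.07 RPM. Bin chr14:105500001-105600000 has no protein-coding gene and read 5.42 and 4.98 RPM against 2.67 and 2.66 RPM. Of the 10 losses 7 had no protein-coding gene. All 20 bins lost their call when any of the 4 libraries was left out, and kept their direction.

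At the resolution of the deposited table, 0 of the 255057 windows of 10 kb were called by limma (0% of them), while 22952 had an unadjusted p under 0.05 and limma with voom precision weights called 8278.

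Over gene bodies, the stretch from start to end of genes spanning at least 5 windows, 498 of 6637 genes rose (7.5%) and 61 fell (0.919%), at a limma adjusted p under 0.05. The median gene body differed by a log2 of 0.128 in the same direction, and values here are against the library total. With each library centred on its median gene body they are lower, as given below for Pnpla1 and Slc6a2. The lipid enzyme gene Pnpla1 (chr17:28858286-28890308) read 3.72 and 3.79 RPM per window in controls and 10.9 and 9.46 RPM in cDKO, a log2 difference of 1.44 ± 0.15 (SE; limma adjusted p = 0.0324). It read 8.94 and 9.92 RPM in G9a cKO. Git2, which encodes a regulator of small GTPases (chr5:114727408-114774588), read 3.26 and 2.55 RPM in controls and 6.96 and 6.82 RPM in cDKO. Tdrd9, a germ-line helicase gene of the piRNA pathway that silences transposons (chr12:111971488-112068854), read 3.29 and 2.96 RPM against 7.02 and 6.48 RPM, and its RNA fell from 76.0 RPM in controls to 37.2 RPM in cDKO (limma adjusted p = 1.03e-05). Smarcc2, for a subunit of the BAF chromatin remodeller (chr10:128459182-128490591), read 2.81 and 2.77 RPM against 7.20 and 5.21 RPM.

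The other 6 of the 10 genes with the largest gains were Foxn2 (a forkhead factor), Mtbp (a binding partner of MDM2), Kif3a (a kinesin motor of cilia), Optn (an autophagy receptor), Lrp1 (an endocytic receptor) and Atad2b (a bromodomain protein), with log2 differences of 1.14 to 1.28. For each of the 10, both cDKO libraries lay above both controls, which was a condition of the choice, and both G9a cKO libraries did as well. Of the 8 with a matched RNA locus none rose in RNA: Tdrd9 and Lrp1 fell, Lrp1 from 299 RPM in controls to 229 RPM in cDKO (limma adjusted p = 0.00704), while Git2 RNA was at 181 and 183 RPM. These genes had 2.46 to 3.79 RPM of H3K9me2 per window in controls, below the mean of 3.82 and 3.83 RPM over all gene bodies in the 2 controls. The same control values entered the choice of these genes, which favours low ones. G9a cKO was set against the same controls, so its place above them is not separate evidence.

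Of the 10 genes with the largest losses, the 4 with a matched RNA locus had at most 1.80 RPM of RNA in control oocytes. Slc6a2, the noradrenaline transporter gene (chr8:92960470-93001667), read 5.53 and 5.90 RPM in controls and 2.79 and 2.98 RPM in cDKO, a log2 difference of -0.99 ± 0.13 (SE; limma adjusted p = 0.0324). It read 4.85 and 4.33 RPM in G9a cKO, between the other groups, although the difference between the mutants was not called (limma adjusted p = 0.124). Cdh5, the cadherin gene of vessel walls (chr8:104101613-104144504), read 5.50 and 6.12 RPM against 2.79 and 3.83 RPM. Htr2a, a serotonin receptor gene (chr14:74640874-74706859), read 4.88 and 4.69 RPM against 2.90 and 2.58 RPM, with 2.08 and 1.55 RPM in G9a cKO. Gpc4 (chrX:52051007-52164923), a glypican gene, read 5.66 and 4.67 RPM against 2.90 and 2.75 RPM, and lies in the bin described at both larger scales. Mamld1, Lpxn (a focal adhesion protein), Mical2 (an actin-oxidising enzyme), Oc90 (a protein of the inner ear), Adgrg7 (an adhesion receptor) and Prag1 (a pseudokinase) complete the 10, with log2 differences of -0.80 to -0.91.

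Calls over gene bodies were the least secure. With each library centred on its median gene body 0 genes were called by limma (2122 at an unadjusted p under 0.05), although Pnpla1 was still at 1.32 and Slc6a2 at -1.11 (limma adjusted p = 0.056 for each). Leaving out control 2, control 4, cDKO 5 or cDKO 7 likewise left 0 calls, with 1024, 918, 1560 and 2028 genes at an unadjusted p under 0.05.

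**Figure D5:**
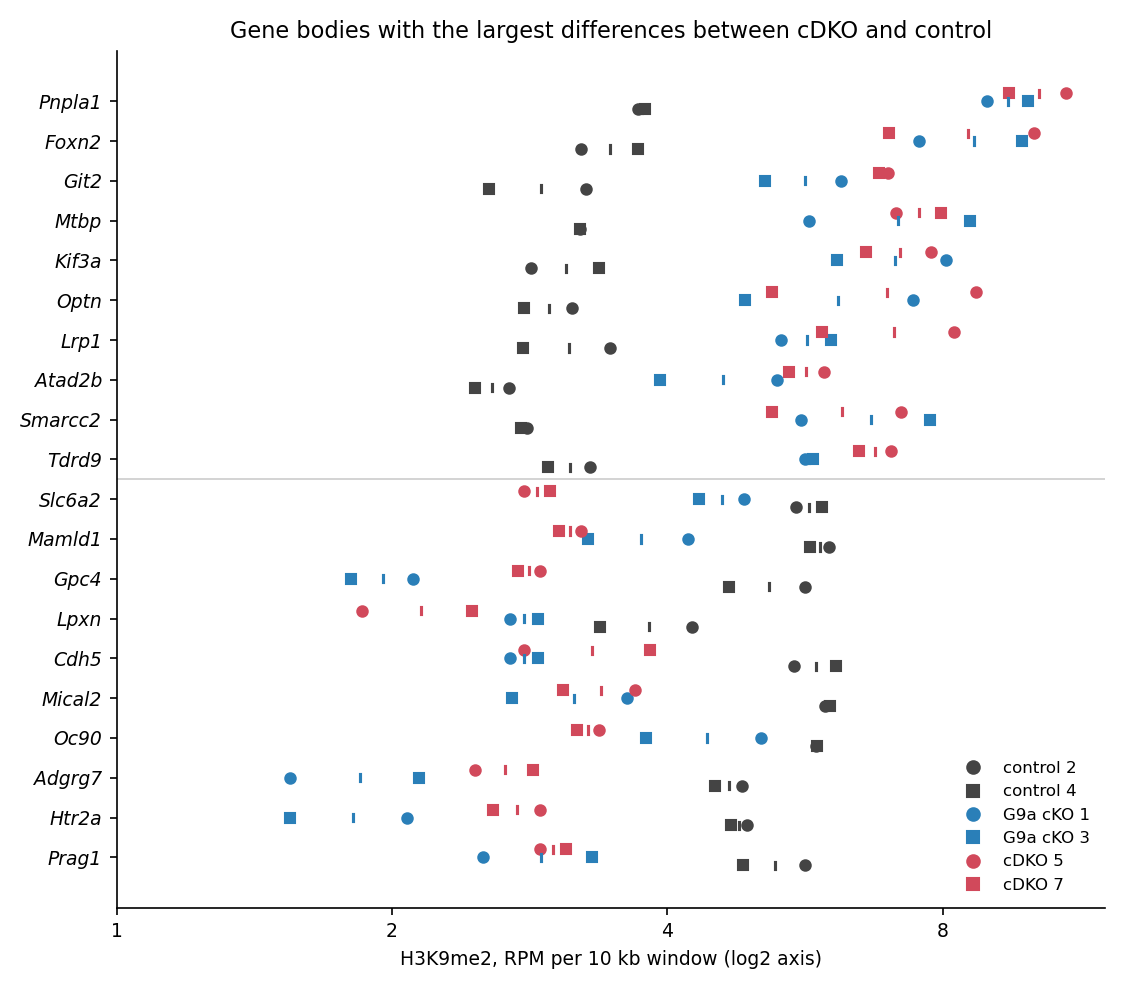
H3K9me2 over the 10 gene bodies with the largest gains (above the line) and the 10 with the largest losses (below it), in RPM per 10 kb window on a log2 axis. Each point is 1 library and short lines are group means. No gene shows overlap between the controls and the cDKO libraries, which was a condition for choosing the genes.

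RNA of cDKO and GKAQ control oocytes gave an independent reading of the same genes. Among 38540 loci, 1665 rose in cDKO (4.32%) and 779 fell (2.02%), at a limma adjusted p under 0.05. The 331 genes whose RNA fell had more H3K9me2 in cDKO: 50 rose in H3K9me2 (15.1%, against 7.5% of all gene bodies), 0 fell, and the median log2 difference was 0.345 against 0.128. Their mean level was 3.55 and 3.46 RPM in controls and 4.50 and 4.39 RPM in cDKO. For the 58 of them whose RNA fell by a log2 of at least 1, the median was smaller, 0.211, with 6 higher (10.3%) and 0 lower. The 390 genes whose RNA rose had a median H3K9me2 difference of 0.02, with 14 called higher (3.59%) and 7 lower (1.79%, against 0.919% of all). For the 268 of them with a log2 RNA difference of at least 1, the median was -0.06, with 6 higher and 7 lower. The 2 groups differ in RNA level in controls, with medians of 175 RPM for genes that fell and 10.8 RPM for genes that rose, and the part of that level in the difference was not tested. Of 13 markers of granulosa and other ovarian somatic cells 12 were matched to RNA loci, 5 higher, 5 lower and 2 at 0 in both groups, summing to 61.0 to 66.3 RPM in the 3 controls and 58.7 and 52.8 RPM in cDKO. Within that list the granulosa genes Fshr (1, 6 and 5 reads in controls, 16 and 9 in cDKO; limma adjusted p = 0.030) and Inha (2, 10 and 2 reads against 12 and 17; limma adjusted p = 0.00472) rose, while Cyp19a1, the gene with most reads in the list, was at 47.3 RPM in controls and 29.5 RPM in cDKO (limma adjusted p = 0.0546). The collagen genes Col1a2 and Col3a1 had no read in either group. The part of somatic RNA in the RNA calls was not tested.

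The 7 genes whose RNA rose while H3K9me2 fell, named after their values were seen, include Plac1, a placental gene on chromosome X. It read 5.53 and 5.33 RPM of H3K9me2 per window in controls and 3.48 and 3.75 RPM in cDKO (log2 -0.59 ± 0.14, limma adjusted p = 0.0479), and its RNA was at 0.303 RPM in controls and 9.03 RPM in cDKO. Cttnbp2, a cytoskeletal gene of neurons, went from 5.17 to 37.1 RPM of RNA, with a log2 H3K9me2 difference of -0.55. Arnt2, for a neuronal transcription factor, C1qtnf7, Ephx2, Myo7b and Pros1, for an anticoagulant protein, were the others, with log2 H3K9me2 differences of -0.63 to -0.73.

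Genes picked for a strong rise in RNA in earlier results of these data were read for H3K9me2 whatever it did, and none of the 5 with a value was called. Over all gene bodies 7.5% rose and 0.919% fell, and over all 100 kb bins 4.43% and 1.56%. With shares this low, the lack of a call among 5 genes is no result about them. Limch1, an actin-associated gene, had 0, 2 and 1 RNA reads in controls and 63 and 54 in cDKO. Its gene body read 4.96 and 5.23 RPM of H3K9me2 in controls and 4.15 and 4.12 RPM in cDKO, without overlap, but was not called (log2 -0.30 ± 0.12, limma adjusted p = 0.125). Rgs7, a regulator of G-protein signalling, read 4.44 and 4.63 RPM against 3.82 and 4.10 RPM (limma adjusted p = 0.292). The bin of Mt1, a metallothionein gene, had 4.91 and 4.39 RPM against 4.64 and 4.65 RPM, although its RNA went from 1, 0 and 0 reads to 144 and 161. Kmt2a read 4.05 and 3.95 RPM against 4.58 and 3.84 RPM, and the bin of Zscan4d, a gene of the early embryo, 3.39 and 3.58 RPM against 3.13 and 3.08 RPM.

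Of 29 genes that write, erase or read H3K9 methylation, 5 rose in H3K9me2 and 0 fell. Over the 19 measured as gene bodies 3 rose, and their median log2 difference was 0.40, where 7.5% of all gene bodies rose and their median was 0.128. Over the 10 measured as the 100 kb bin 2 rose, and their median was 0.43, where 4.43% of all bins rose and their median was -0.04. The bin of the methyltransferase gene Setdb1 read 3.50 and 3.54 RPM in controls and 6.91 and 5.58 RPM in cDKO (log2 0.82 ± 0.14, limma adjusted p = 0.0186). The demethylase genes Jmjd1c, Kdm7a and Phf8 rose by log2 differences of 0.64, 0.74 and 0.77, and the bin of the reader gene Cbx1 by 0.57. The deleted gene Ehmt1 read 3.30 and 3.06 RPM over its body in controls and 4.29 and 4.33 RPM in cDKO, which did not pass (limma adjusted p = 0.0719). In RNA, 21 of the 29 were matched to a locus, with 1 called higher and 3 lower, where 4.32% and 2.02% of all loci were. The demethylase gene Kdm3a rose, from 24, 29 and 23 reads to 63 and 57 (log2 1.45 ± 0.34, limma adjusted p = 0.000865), and Ehmt1, Cdyl and Dppa3 fell. Cdyl, for a partner of the G9A complex, differed by -0.58, and Dppa3, for a protein that shields maternal DNA methylation, by -0.41. For genes too short for the gene-body test the 100 kb bin is given, which neighbouring genes share.

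The cDKO and G9a cKO libraries were also compared directly, since comparisons with the same controls cannot separate them. At 100 kb 36 bins differed (0.141%; 5 higher and 31 lower in cDKO), and at 1 Mb 215 bins differed (8.39%), 95 of them higher and 120 lower in cDKO, at a limma adjusted p under 0.05. The bin with Gpc3, Gpc4, Hprt and Phf6 was 1 of them. It read 2.58 and 2.52 RPM in G9a cKO and 3.24 and 3.16 RPM in cDKO, so its loss was smaller in cDKO (log2 0.33 ± 0.06, limma adjusted p = 0.0316). Bins with Cyp3, Vmn and Zfp genes read higher in G9a cKO than in cDKO, and bins with over 100 RPM of RNA read lower, with no overlap of the libraries in any of these. The 1 Mb count rests on single libraries: it was 4 without cDKO 5, 0 without cDKO 7 (444 at an unadjusted p under 0.05), 522 without G9a cKO 1 and 691 without G9a cKO 3. At 100 kb it was 0 without cDKO 5, without cDKO 7 or without G9a cKO 3 (5683, 4170 and 7122 at an unadjusted p under 0.05) and 978 without G9a cKO 1.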

How the data were processed

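H3K9me2 was measured by low-input native ChIP-seq in 6 oocyte libraries and RNA in 11. The authors deposited both tables as log2 values with 1 column per library; the unit, filters and window selection are not given in the sources used here. The submitters' processing notes name build GRCm38, Trim Galore, Bowtie2, HISAT2 2.1.0 and Bismark 0.19.0 without saying which served which assay. All values above a library's lowest were log2 of whole multiples of 1 step (within 0.01), and the lowest was 0.9 of it, so library totals and whole reads followed, for 100% of the H3K9me2 values. Windows summed to 101% to 102% of the totals. A further 4 columns match no sample and were not used, nor were input, IgG and bisulphite libraries.

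Reads of kept windows were summed to bins of 100 kb and 1 Mb (at least 50% of windows kept) and to gene bodies, divided by the library total and the number of windows, and log2-transformed with no pseudocount. A sum of 0 was set to 0.9 read. limma 3.58.1 in R 4.3.3 (trend, robust) fitted a mean per genotype over the 6 H3K9me2 libraries, and over the 11 RNA libraries a mean per genotype and title series. P-values were two-sided, adjusted by Benjamini-Hochberg over all features, and called under 0.05. The code was tested on simulated data. Genes are RefSeq protein-coding genes of GRCm38.p6; of the RNA loci, 12736 matched a symbol and 98.07% of these overlapped its position. Named bins and genes are those called, with both cDKO libraries on the same side of both controls and the largest differences (5 per direction at 1 Mb, 10 at 100 kb and over gene bodies), plus lists by role. Members and lists were chosen with earlier results of these data known. The planned first 3 Mb of chromosomes held no kept window, so the first 3 Mb with kept bins were used. Whether RNA counting used strand is not given. Alternatives changed the libraries fitted, weights (voom), centring, chromosomes, window and bin filters and bin borders; the closing section gives their effect.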

Additional observations from a re-analysis of the deposited data

How the results depend on the processing

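The 1 Mb comparison of cDKO with control held best: its 10 named bins kept direction and call under every alternative in which they could be tested, and its count was 257 to 759 when 1 library was left out and 946 of 2285 bins with every window kept, an alternative chosen after seeing the data. The named gains at 1 Mb dropped out of the alternatives that asked for 90% or all windows of a bin, so only the named losses were tested there. Named items at 100 kb kept their call in 128 and lost it in 83 refits, and named gene bodies in 104 and 100; none changed direction. With only the control and cDKO libraries fitted, 4583 bins of 100 kb and 1709 gene bodies were called, and with voom weights 5892 and 2592. Left-out libraries gave 0 to 31 calls at 100 kb, 0 over gene bodies and 0 to 1443 for 10 kb windows (1443 without control 2). Gene bodies gave 0 calls when centred on the median and 883 when genes of at least 10 windows were tested. Over all windows of 10 kb, including 17101 without a read in any H3K9me2 library, 20532 were called, 20102 higher and 430 lower. A window without reads sits at the lowest value of each library, which is higher in libraries with fewer reads, as those of cDKO. That count therefore cannot be read as a change of the mark. With voom, 8278 of the 255057 windows with a read were called. For cDKO against G9a cKO at 100 kb the count was 850 with voom, 276 when centred and 9 with windows above 5 times the median left out, and 0 to 978 without 1 library; at 1 Mb it was 0 to 691 without 1 library. For RNA it was 1562 to 1922 without 1 library. The log2 difference of gene-free bins was -0.12 on autosomes alone, and the excess variation between autosomal 100 kb bins was 2.28 points higher in cDKO, 0.537 to 4.02 without 1 library. Where a genotype is left with 1 library, that library is assumed to vary like the others. The cause of these changes was not tested. No paired analysis was possible because each title number occurs in only 1 H3K9me2 library. Depth in mutants, with medians of 4 to 7 reads per window, limits single windows and bins.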
